A study of Rattus norvegicus with 6 samples.

Results

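The genes described here were those of the WAP four-disulfide core family, taken as the features of the expression table named exactly Wfdc1, Wfdc2, Wfdc3, Wfdc5, Wfdc6a, Wfdc6b, Wfdc8, Wfdc10 and Slpi. Of the 9 names, 8 had a feature of their own among the 27321 in the table, and Wfdc8 had none. The family was chosen by the rise of 2 of its members, Wfdc6b and Wfdc10, in diabetic rats, so the change of these 2 genes is given as a description without a p-value. The remaining members entered by name alone, and the question put to the data was whether the rise was shared by the features lying next to them on the chromosome or was limited to single genes.

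The RNA came from the IM tip, the terminal part of the kidney inner medulla, of male Sprague-Dawley rats aged 3 months. The control group was 3 rats given vehicle, and the STZ group was 3 rats made diabetic with streptozotocin, a toxin that destroys pancreatic beta cells, at a dose of 62.5 mg/kg into the tail vein. Tissue was collected 15 days after the injection. Each library is numbered as a separate sample of its group, and the sources used here do not say that animals were pooled. The values are normalized counts, that is, uniquely mapped reads on a feature divided by a size factor of the library, and 1 read was worth between 0.763 and 1.11 normalized counts. The libraries held between 3412311 and 5575171 reads on features, with overlapping ranges in the groups. As a check that collecting duct was sampled, 6 collecting duct principal cell genes, among them the water channels Aqp2 and Aqp3, were present in every library. They summed to between 32733 and 81693 normalized counts, with Fxyd4 the largest part in each. These genes do not tell the IM tip from other kidney parts with collecting duct, so the dissection was not tested. Thick ascending limb genes were also present, and their values are given below. Lane 3 carried all control libraries, and lanes 6, 7 and 8 carried 1 STZ library each, so an effect of the lane cannot be told apart from that of STZ.

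WAP domain proteins are small secreted proteins named after whey acidic protein of milk. Their core is a short domain held by 4 disulfide bonds, and in several members it blocks serine proteases such as neutrophil elastase. Most of the genes lie in a single cluster, together with genes for Kunitz-type protease inhibitors, and many are best known from the male reproductive tract and from moist epithelia. Slpi encodes secretory leukocyte protease inhibitor, a defence protein of mucosal surfaces. Wfdc2 encodes a secreted protein of epithelia that is used as a serum marker in ovarian cancer and has been linked to kidney fibrosis. Wfdc1 lies outside the cluster and encodes a secreted protein first described in prostate stroma. Little is established about the function of Wfdc6b and Wfdc10.

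In the rn4 coordinates of the table, 7 of the 8 members lay on chromosome 3 and Wfdc1 lay on chromosome 19. Along chromosome 3 the order was Wfdc5 (chr3:155116780-155122624), Slpi (chr3:155373827-155376074), Wfdc2 (chr3:155582393-155588055), Wfdc6a (chr3:155600267-155602799), Wfdc6b (chr3:155634497-155641866), Wfdc10 (chr3:155685440-155686794) and Wfdc3 (chr3:155747772-155772497). Wfdc1 was at chr19:49924433-49943113.

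The sequences upstream of Wfdc6a and Wfdc6b are nearly the same, which bears on how their values can be read. The 250 bases upstream of each start, as RefSeq annotates it on the later assembly GRCr8, are shown to compare them. Capitals mark the bases that are the same when the windows are laid over each other, and lower case marks the rest.
Wfdc6a, chr3:173728490-173728739, minus strand: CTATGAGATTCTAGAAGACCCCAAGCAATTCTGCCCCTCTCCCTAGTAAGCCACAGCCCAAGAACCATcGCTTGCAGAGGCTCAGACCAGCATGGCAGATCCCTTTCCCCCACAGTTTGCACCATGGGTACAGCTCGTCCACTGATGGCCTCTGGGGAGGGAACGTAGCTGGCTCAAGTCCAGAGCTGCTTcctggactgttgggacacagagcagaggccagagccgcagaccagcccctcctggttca
Wfdc6b, chr3:173758140-173758389, plus strand: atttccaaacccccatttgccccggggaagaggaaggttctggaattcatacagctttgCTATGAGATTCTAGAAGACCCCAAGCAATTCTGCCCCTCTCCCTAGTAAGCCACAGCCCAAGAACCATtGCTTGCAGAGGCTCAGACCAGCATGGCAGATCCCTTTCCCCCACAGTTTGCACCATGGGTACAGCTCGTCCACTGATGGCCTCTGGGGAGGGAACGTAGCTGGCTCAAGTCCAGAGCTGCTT
The windows overlapped over 191 bases, with an offset of 59 bases between the annotated starts, and 190 of the 191 bases were the same (99.5%). The only difference in the overlap was C69T, written with the base of Wfdc6a first and counted from 1 at the first printed base of Wfdc6a. Windows of 300 bases overlapped over 241 bases, of which 240 were the same, so the match went on beyond the printed overlap. Lower case at the ends of the windows therefore does not by itself mark a mismatch. Promoter entries existed for 6 of the 9 listed members, and among the 15 pairs of these the next best ungapped match was 44.3%, between Wfdc2 and Wfdc5. Since the authors kept only uniquely mapped reads, reads from any stretch that transcripts of both genes might share could be assigned to neither, so the values of Wfdc6a and Wfdc6b are uncertain to that extent. The transcripts themselves were not compared here.

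Wfdc6b was close to the detection limit in control rats and clearly present in STZ rats. Control replicates 1, 2 and 3 had 4.10, 5.34 and 2.23 normalized counts, and STZ replicates 1, 2 and 3 had 85.4, 101.9 and 132.5. The lowest STZ library lay far above the highest control library. The group means were 3.89 ± 1.57 and 107 ± 23.9 (SD, n = 3 each), a ratio of 27.4, and the log2 fold change (log2FC) on the log2(normalized count + 1) scale was 4.49 (SE 0.35). The 1 added on that scale, used for every fold change below, shrinks the change of low genes. A log2FC on it is a difference of mean logs, which can be larger or smaller than the log of the ratio of means. Behind the control values stood 4, 7 and 2 reads. Wfdc6a, with the matching upstream sequence, had 0, 2.29 and 5.57 normalized counts in the control libraries and 0, 4.95 and 0 in the STZ libraries. It had no value above 5 reads, its groups overlapped, and it was too low to test.

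Wfdc10 was high and nearly equal in the STZ rats, while its control rats were unlike each other. The control libraries had 37.9, 625 and 61.2 normalized counts. The STZ libraries had 2223, 2373 and 2277. Control replicate 2 was 16.5 times control replicate 1 and 10.2 times control replicate 3, while the STZ libraries differed by a coefficient of variation of 3.32%, against 138% in the controls. The means were 242 ± 333 and 2291 ± 75.9 (SD, n = 3 each), and the log2FC was 4.32 (SE 0.76). The size of this rise turned on control replicate 2. The STZ mean was 3.66 times the value of that library and 46.2 times the mean of the other controls, and without it the log2FC was 5.54 (SE 0.24).

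Wfdc2 was well detected in every library and higher in each STZ rat than in each control rat. The control libraries had 512, 584 and 296 normalized counts and the STZ libraries 772, 810 and 989. The means of 464 ± 150 and 857 ± 116 (SD, n = 3 each) stood in a ratio of 1.85. The log2FC of 0.93 (SE 0.25) did not pass limma's test (adjusted p = 0.0929 by the Benjamini-Hochberg procedure over all 13486 features tested, threshold 0.05).

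Wfdc1 on chromosome 19 was at or below 1 read in each control library, with 0, 0.763 and 1.11 normalized counts. The STZ libraries had 21.4, 6.92 and 19.1, so the groups did not overlap. With the controls set to a floor of 3 reads per library, Wfdc1 was at least 5.44-fold higher in STZ. The fitted log2FC was 3.30 (SE 0.79), and the adjusted p of 0.0591 missed the threshold. Without control replicate 3 it passed, at 0.0459, and over the 15 alternatives run its adjusted p ranged from 0.0166 to 0.242. Wfdc1 and Wfdc6b entered the test through their STZ values, since their control means were under the minimum mean of 5. Reads without molecular identifiers are not independent molecules, so floors cover counting error only.

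Wfdc3, at the far end of the cluster, had 6.15, 6.10 and 10.02 normalized counts in control and 13.9, 14.8 and 6.02 in STZ libraries. The groups overlapped, and its log2FC of 0.52 (SE 0.51) made no call (adjusted p = 0.742). Slpi was lower still, with 3.08, 1.53 and 8.90 against 0.929, 1.98 and 3.01, and all its STZ libraries were at or under the floor of 3 reads. Wfdc5 had no read outside control replicate 3, which held 2.23 normalized counts. A level that differed between the groups was not detectable for Slpi, Wfdc5 or Wfdc6a at this depth. Slpi lies inside the longer feature F1LVX9_RAT and Wfdc5 inside the locus of Ywhab, and the use of strand in counting is not given in the sources used here, so reads of overlapping genes may not have been told apart.

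**Figure D1:**
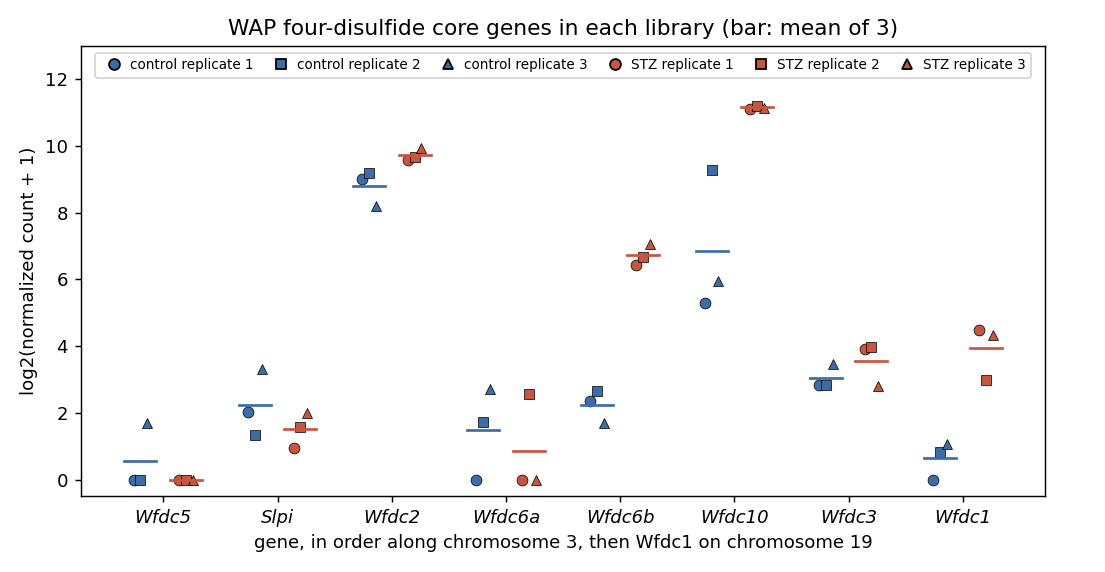
Level of the 8 WAP four-disulfide core genes in each of the 6 libraries, on a log2(normalized count + 1) axis, with a bar at the mean of the 3 libraries of each group (blue control, red STZ; marker shape gives the replicate number). Wfdc6b and Wfdc10 show the widest gap between groups, control replicate 2 of Wfdc10 stands above the other controls, and Wfdc5, Slpi, Wfdc6a and Wfdc3 overlap.

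Over the family, 5 of the 8 members reached the minimum mean and 2 of these passed the threshold, both higher in STZ and both the genes the family was chosen by. Over all features tested 2.10% passed in either direction, 1.17% higher and 0.927% lower in STZ. The groups did not overlap for 4 of the 5 tested members, with every STZ library above every control library, as held for 10.1% of all features tested. The median log2FC of the tested members was 3.30 and that of all tested features 0.0056. The selection fixed part of these counts, so nothing is read from them. As a gauge of stray signal, the 95th percentile of 835 olfactory receptor genes was taken in each library, and it ran from 1.86 to 10.02 normalized counts. Wfdc2 and Wfdc10 exceeded it in all 6 libraries. Wfdc6b exceeded it in the 3 STZ libraries and in control replicate 1. Wfdc1 did so in the 3 STZ libraries, and Wfdc3 in control replicate 1 and STZ replicates 1 and 2. Slpi did so in control replicate 1 only, and Wfdc5 and Wfdc6a in none. The gauge was lowest in replicate 1 (2.05 in control, 1.86 in STZ) and highest in replicate 3 (10.02 and 9.03), so passing it in replicate 1 asks for few reads. In whole tissue, a higher share of the cells that express a gene and more of its RNA per cell cannot be told apart.

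Neighbours were defined as all other features lying at least in part within 200 kb of a member. There were 64, of which 53 were on chromosome 3 and 11 around Wfdc1, and 30 were high enough to test. Of these 30, 3 were higher in STZ (10%, beside 1.17% of all features), none was lower, and 27 made no call. The 3 were Spint3, F1LW49_RAT and D4A3B9_RAT, and all lay in the stretch from Wfdc2 to Wfdc3 that holds Wfdc6b and Wfdc10. Among the neighbours tested, 7 had every STZ library above every control library, beside 10.1% of all features tested. For 2 the reverse held, a share not given over all features, and 21 overlapped. The median log2FC of the 30 was 0.12. Of the 30, 3 had a control mean under 5 and so could enter the test only through a higher STZ value, and 2 of the 3 calls, F1LW49_RAT and D4A3B9_RAT, were among them. All 3 features with a control mean under 5 were also among the 7 whose groups did not overlap. The counts of calls and of groups without overlap are therefore descriptions and support nothing about the neighbours as a group.

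Spint3, which encodes a Kunitz-type protease inhibitor, starts 1.31 kb beyond Wfdc2. Its control libraries had 12.3, 4.58 and 5.57 normalized counts and its STZ libraries 43.6, 23.7 and 36.1. The log2FC was 2.13 (SE 0.43, adjusted p = 0.0341). It thus changed more than Wfdc2 beside it, although the difference between them was not tested. Leaving out control replicate 2 or STZ replicate 1, 2 or 3 ended this call, with adjusted p between 0.0684 and 0.13.

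F1LW49_RAT, a predicted gene at chr3:155625465-155627959, lies 6.54 kb before Wfdc6b. It rose from 2.05, 6.10 and 2.23 normalized counts in control to 22.3, 21.8 and 24.1 in STZ libraries, with a log2FC of 2.52 (SE 0.50, adjusted p = 0.0308). D4A3B9_RAT, another predicted gene at chr3:155662544-155665607, lies between Wfdc6b and Wfdc10. It rose from 1.03, 6.86 and 2.23 to 23.2, 25.7 and 18.1, with a log2FC of 2.64 (SE 0.58, adjusted p = 0.0456). Both entered the test through their STZ values, as their control means of 3.46 and 3.37 were under the minimum, and their p-values are to be read with that in mind. Neither has a named protein in the table. RefSeq orders Wfdc8 between Eppin and Wfdc6b and Wfdc16 between Wfdc6b and Wfdc9, the places these features hold here, but no shared identifier ties them and they were not equated. Both calls were lost without control replicate 1 (adjusted p = 0.0636 for F1LW49_RAT and 0.0917 for D4A3B9_RAT) and without STZ replicate 1, 2 or 3 (between 0.0951 and 0.15 for F1LW49_RAT and between 0.106 and 0.223 for D4A3B9_RAT). The call of D4A3B9_RAT was also lost without control replicate 3, at 0.0538.

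A further predicted gene beyond Wfdc10, D4A0Q5_RAT (chr3:155712894-155715698), is named here after its values were seen. It had 11.3, 3.81 and 3.34 normalized counts in control and 32.5, 81.1 and 17.1 in STZ libraries. The groups did not overlap, but the log2FC of 2.53 (SE 0.59) missed the threshold, with an adjusted p of 0.0545. It passed without control replicate 1 (0.0478) or STZ replicate 3 (0.0443), within a range of 0.0186 to 0.251 over the 16 alternatives run.

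The features next to the risen genes did not all move. LOC685227, which RefSeq names Wfdc11, lies 6.28 kb beyond Wfdc10 and had 92.3, 47.3 and 50.1 normalized counts in control and 63.1, 76.2 and 59.2 in STZ libraries. Its groups overlapped, and its log2FC was 0.12 (SE 0.28, adjusted p = 0.919). Wfdc9, which precedes Wfdc10, stayed between 2.01 and 3.81 normalized counts in all 6 libraries and was too low to test. Spinlw1, the older name of Eppin, a sperm-coating protein with a WAP and a Kunitz domain, lies between Wfdc6a and F1LW49_RAT and had a log2FC of 0.50 (SE 0.66, adjusted p = 0.837). D3ZX23_RAT, the nearest feature beyond Wfdc6b, and D3Z9H4_RAT, the nearest before Wfdc3, did not exceed the floor of 3 reads in either group.

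**Figure D2:**
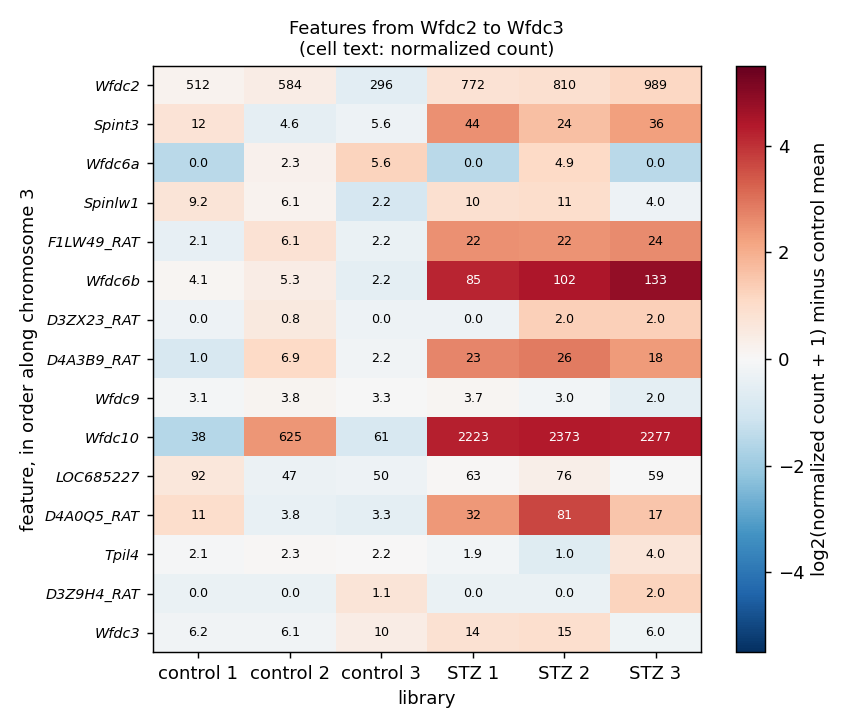
The 15 features from Wfdc2 to Wfdc3 in chromosome order (lines) in the 6 libraries (columns), coloured by log2(normalized count + 1) minus the control mean of that feature, with the normalized count written in each cell. Wfdc6b and Wfdc10 are darkest in all STZ libraries, Spint3, F1LW49_RAT, D4A3B9_RAT and D4A0Q5_RAT are raised less, and LOC685227, Wfdc9 and Spinlw1, which lie among them, are pale.

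The stretch from Wfdc2 to Wfdc3 was set off after these values were seen, so its counts are a description. It held 11 neighbours, of which 6 were tested. All 6 had a positive log2FC, with a median of 2.33 and a range from 0.12 to 2.64. The other 42 neighbours on chromosome 3 included 19 that were tested. None of these passed limma's test, 11 were positive, and their log2FC values had a median of 0.053 within a range of −0.54 to 1.41. The lowest adjusted p among them was 0.205. The count of 3 calls therefore came from a stretch with Wfdc2 and Wfdc3 at its ends, and both of these members missed the threshold.

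Just outside the stretch, Dnttip1, a subunit of a histone deacetylase complex 2.80 kb beyond Wfdc3, had a log2FC of 0.10 (SE 0.22, adjusted p = 0.917). Pigt, which encodes a subunit of the enzyme that attaches GPI anchors, was the nearest feature before Wfdc2 and had a log2FC of 0.03 (SE 0.23, adjusted p = 0.975). Slpi had Slpil2, listed at 0 in every library, before it and the merged feature Rbpjl+Matn4 beyond it, the latter with a log2FC of 1.34 (SE 0.67, adjusted p = 0.393). Around Wfdc5, the potassium channel subunit gene Kcns1 and the WAP gene Wfdc12 were too low to test. Around Wfdc1 on chromosome 19, 5 of the 11 neighbours were tested and none passed, with adjusted p between 0.33 and 0.765. The nearest tested feature beyond Wfdc1 was RGD1308461, which RefSeq names Meak7, with a log2FC of 0.28 (SE 0.22, adjusted p = 0.648). Kcng4, the nearest feature on the other side, was too low to test.

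**Figure D3:**
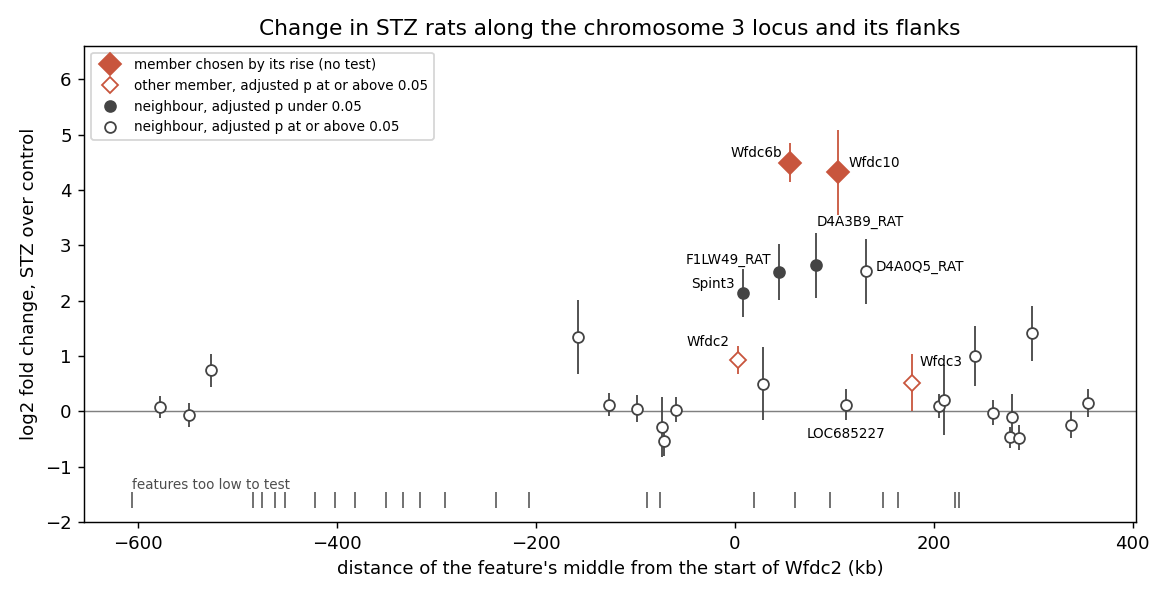
Log2 fold change (STZ over control, vertical axis) of the features on chromosome 3 against the distance of their middle from the start of Wfdc2 in kb (horizontal axis), with bars of 1 SE; red diamonds are members, circles are neighbours, filled circles passed an adjusted p of 0.05, and ticks below mark features too low to test. The points above 2 all lie between Wfdc2 and Wfdc3, where LOC685227 and Spinlw1 lie near 0.12 and 0.50, and the flanks scatter around 0.

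Variation among libraries of the same group gave a view of the locus that does not use the contrast between groups. Differences among rats could not be told apart there from those of library handling or, in the STZ group, of the lane. Deviations of log2(normalized count + 1) from the group means were correlated over the 6 libraries, as a description without a p-value, among 12861 named features. Wfdc10 deviated by 2.45 in control replicate 2, by −1.56 and −0.89 in control replicates 1 and 3, and by at most 0.05 in either direction in the STZ libraries. Its likeness to other features therefore rested mainly on the control libraries. The 5 features most like it were Prr5 (r = 0.999), D3ZXF8_RAT (0.997), D3ZUS2_RAT (0.996), LOC683919 (0.989) and F1LW49_RAT (0.988), the neighbour before Wfdc6b. D4A3B9_RAT came at rank 35, with r = 0.955. D3ZXF8_RAT shared the high value of control replicate 2 most fully, with 2.05, 247 and 7.79 normalized counts in control and 106, 104 and 96.4 in STZ libraries.

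Wfdc6b did not follow this pattern, as its r with Wfdc10 within groups was 0.538. It varied more like Wfdc2, with r = 0.965, the rank of 22 among the 12861 features. The 5 most like Wfdc6b within groups were D4A0E7_RAT (r = 0.991), Osmr, the oncostatin M receptor (0.989), ENSRNOG00000010026 (0.988), Vps4a, an ATPase of membrane sorting (0.987), and ENSRNOG00000032470 (0.987). None of the 5 passed the test between groups. Spint3 differed from both, with r = −0.04 to Wfdc6b and −0.65 to Wfdc10. In these values the features that were higher in STZ within this stretch did not show a single order of libraries. Most of their control values rest on few reads. Control replicates 1, 2 and 3 held 4, 7 and 2 reads for Wfdc6b and 12, 6 and 5 for Spint3. They held 2, 8 and 2 for F1LW49_RAT and 1, 9 and 2 for D4A3B9_RAT. The order of these controls is therefore uncertain by counting error, and nothing is concluded about the locus from it.

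**Figure D4:**
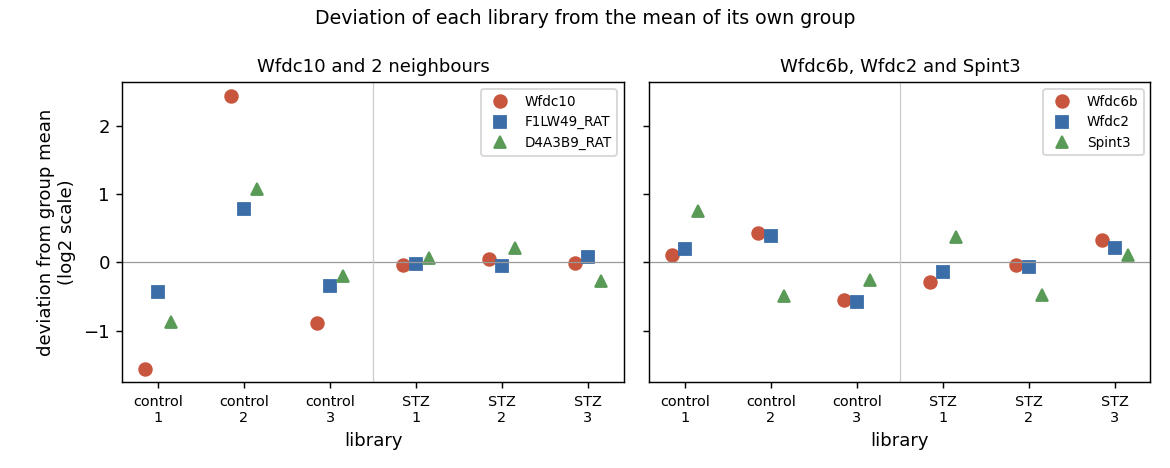
Deviation of each library from the mean of its own group on the log2(normalized count + 1) scale, for Wfdc10 with F1LW49_RAT and D4A3B9_RAT (left) and for Wfdc6b with Wfdc2 and Spint3 (right); each point is 1 library. Wfdc10 and the neighbours shown with it are all highest in control replicate 2, Wfdc6b and Wfdc2 lie close together, and Spint3 does not follow them. Except for Wfdc10 and Wfdc2, the control points rest on 12 reads or fewer.

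Over all 6 libraries, levels and the contrast between groups included, the features most like Wfdc6b were Slc13a2 (r = 0.996), a sodium-coupled transporter of citrate and other dicarboxylates, Josd1 (0.995), a deubiquitinase, Olfml1 (0.994), Syt8 (0.991) and Depdc7 (0.989). Slc13a2 had 35.9, 39.7 and 22.3 normalized counts in control and 196, 255 and 237 in STZ libraries. Those most like Wfdc10 were Ttc27 (0.99), Sparcl1 (0.989), a matrix-associated protein, Pkm2 (0.988), a pyruvate kinase, D4A3B9_RAT (0.986) and Tekt1 (0.981), a protein of cilia. These values share the 6 libraries and the difference between groups with the choice of the genes.

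Few of the other genes listed for the WAP and protease pathway were high enough to test, and those tested made no call. The called neighbours Spint3, F1LW49_RAT and D4A3B9_RAT were not on these lists. Of 19 further WAP domain gene names, 8 had a feature and 2 were tested, Spinlw1 and Wfikkn2, the latter with a log2FC of 1.05 (SE 0.64, adjusted p = 0.517). LOC685227, found through its RefSeq name, made no call either. For serine proteases of neutrophils and mast cells, the enzymes that WAP proteins such as Slpi inhibit, 11 gene names were listed, synonyms included. Of these, 7 had a feature and 1 was tested, while 5 were at or under the floor in both groups. Neutrophil markers did not pass either. Of 9 names listed, 8 had a feature, and the other, Cxcr2, is the RefSeq name of Il8rb, which was found. Of the 8, 2 were tested, and the list summed to 36.7 to 39.98 normalized counts in control and 32.5 to 71.3 in STZ libraries.

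For the urothelium, the lining of the renal pelvis that lies against the IM tip, 9 marker names were listed, synonyms included. Of these, 6 had a feature, and 2 of the 6 were higher in STZ (beside 1.17% of all features tested). The median log2FC of the 6 was 0.79. For 3 of the 6 the groups overlapped. For the other 3 every STZ library lay above every control library, beside 10.1% of all features tested. The summed level of the list was 90.8 to 142 normalized counts in control and 441 to 529 in STZ libraries. Upk3a, a uroplakin of the urothelial surface, accounted for most of this, with 27.7, 28.2 and 50.1 in control and 332, 367 and 333 in STZ libraries (log2FC 3.30, SE 0.25, adjusted p = 0.000117). Upk1b was also higher, at 1.25 (SE 0.28, adjusted p = 0.0489), a call lost without control replicate 1 or 2 or any STZ library (adjusted p between 0.0807 and 0.204). The other 4, Upk1a, Upk2, Upk3b and Tp63, did not pass. Upk1a, the partner of Upk2 in the uroplakin plaque, had a log2FC of 0.04 (SE 0.39). None of the defining markers found was at 0 in both groups. Of the 3 smooth muscle and pericyte markers found, 1 was higher, beside 1.17% of all features tested. It was Tagln, an actin-binding protein (log2FC 1.34, SE 0.19, adjusted p = 0.00576). Des and Pdgfrb had log2FC values of −0.23 and −0.16 and did not pass, and the sum of the list, 342 to 472 normalized counts in control and 688 to 772 in STZ libraries, rose through Tagln. Of the 3 thick ascending limb markers found, 1 was lower, beside 0.927% of all features tested. It was Umod, the urinary protein uromodulin (log2FC −2.93, SE 0.37, adjusted p = 0.00353). Slc12a1, the sodium-potassium-chloride cotransporter of that segment, and Cldn10, a tight junction protein, did not pass, at −1.47 (adjusted p = 0.0732) and 0.25 (adjusted p = 0.712), and the sums of the list overlapped between groups, with 2507 to 3191 in control and 1562 to 2738 in STZ libraries. None of the 6 principal cell markers passed limma's test, but all 6 had a positive log2FC, with a median of 0.81. For 3 of them every STZ library lay above every control library, as held for 10.1% of all features tested. The sums of that list overlapped between groups, with 32733 to 54542 in control and 42643 to 81693 in STZ libraries. The part of any of these cell types in the rise of Wfdc6b and Wfdc10 was not tested.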

How the data were processed

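The authors amplified cDNA by PCR and sequenced it on a HiSeq2000. Reads were mapped by STAR 2.3.1t to rn4, those with a unique position were counted per Ensembl RGSC3.4 gene, and the counts were scaled by DESeq 1.16.0 size factors (versions from the submitters' processing notes). The counting program is not given in the sources used here. The deposited signal is therefore a normalized count per feature, and each library's values were all whole multiples (100%, tolerance 1e-06) of what 1 read is worth. All columns were matched to samples by name.

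The 13486 of 27321 features whose mean reached 5 were compared with limma 3.58.1 in R 4.3.3, two-sided, with a pseudocount of 1 on the log2 scale and a prior variance that follows intensity. P-values were adjusted by Benjamini-Hochberg over all of them, at 0.05, and no p-value was adjusted over the members. On simulated data with 200 features changed by a log2 of 2, 188 were recovered with 14 false calls. The simulation gave every feature the same dispersion and had no effect of replicate number. It checks that the fit runs correctly and does not give the power in these data. The members and lists were chosen with earlier results of these data known. Named are the members, neighbours that passed, the nearest feature on each side of a member, the 5 features most like Wfdc6b and Wfdc10, and list genes that passed. Further list genes and D4A0Q5_RAT were named after their values were seen. Alternatives were other pseudocounts, filters, scalings, variance priors and windows, the replicate block, and leaving out each library. Promoters are from RefSeq (GRCr8), and its gene list gave synonyms only. Tables were made in Python 3.11.15 (pandas 2.3.3, numpy 2.4.6) and figures with matplotlib 3.10.9.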

Additional observations from a re-analysis of the deposited data

How the results depend on the processing

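The 5 tested members, the 3 called neighbours and D4A0Q5_RAT kept a positive log2FC under each alternative they were fitted in, from 3.64 to 4.71 for Wfdc6b and from 3.54 to 5.54 for Wfdc10, the genes the family was chosen by. The median over all features lay between −0.0232 and 0.0339. Leaving out a library turned the sign of features that made no call, within ranges of −0.0473 to 0.43 for LOC685227, −0.0293 to 0.25 for Dnttip1, −0.15 to 0.20 for Pigt, −0.33 to 0.51 for Upk1a, −0.41 to 1.13 for Tp63 and −0.38 to 0.0377 for Des. Over all features 283 passed (158 higher), and the count was 501 with quantile normalization, 31 without the intensity trend, 561 with the replicate block and 88 to 352 with a library left out. Among members 2 passed, against 4 with no filter, 1 without the trend, 1 with robust moderation and 1 to 3 with a library left out. Among neighbours 3 passed, against 0 without the trend and 0 to 2 with a library left out (0 without STZ replicate 1, 0 without STZ replicate 2 and 1 without STZ replicate 3). In these counts of members Wfdc6b and Wfdc10 are included. Windows of 100 and 500 kb called 3 of 24 and 4 of 42 tested neighbours, and at 500 kb 3 of the calls were higher and 1 lower in STZ. Spint3 passed in 11 of 16 alternatives, F1LW49_RAT in 10 of 15, D4A3B9_RAT in 7 of 15, Wfdc1 in 6 of 15 and Wfdc2 in 1 of 16. The cause of these differences was not tested.

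The replicate numbers are shared by different animals. The numbers were not taken as pairs, since they are not known to pair the rats. Deviations of same-numbered libraries correlated at 0.574, −0.0148 and 0.496, and those of different-numbered libraries at −0.592 to 0.27. Whether libraries of the same number share a factor was not tested. With the replicate block 3 members and 4 neighbours passed, Wfdc1 (adjusted p = 0.0166) and D4A0Q5_RAT being added. Count-based tests planned as alternatives were not run. With 3 libraries a group and a control level of a few reads for Wfdc6b and most neighbours, depth limits what can be said of Wfdc5, Wfdc6a and Slpi.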
